A study of Urocitellus parryii with 3 samples.

Results

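The loci described here are genome positions of the longest small RNAs that a 30-base read can show in arctic ground squirrel liver. This rodent, Urocitellus parryii, hibernates, alternating days of torpor with brief arousals. A read was taken as fully placed when all of its 30 letters had been placed on the genome, so that the sequenced RNA filled the read. The length of 30 bases is that of the read and not of the RNA, whose 3′ end was not seen. Fully placed reads listed on at most 9 lines of the position table were kept, each was counted once per stage, and same-strand positions within 10 bases were joined into loci. Of 1125 such loci, 106 held at least 20 reads over the 3 stages, and these are the members. They were chosen for their read counts summed over the stages, so the totals themselves are no finding. The sum includes early arousal, the library with most of these reads, so the limit favours loci that are high there, and counts over the members are a description of what passed it. For comparison, reads of every placed length formed 2957 loci with at least 20 reads.

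Each stage was 1 library. RNA of 6 post-reproduction animals, which were summer animals with normal body temperature serving as the non-hibernating reference, was mixed in equal amounts, as was that of 4 animals in early arousal and of 4 in late torpor, 14 animals in all. The 6 animals of the reference were anesthetized before death, and the labels name housing near 20 °C with a 16 h light and 8 h dark cycle, while hibernating animals carried transmitters and had 4 h light and 20 h dark. No housing temperature is given apart for the hibernating animals, so that season, light, housing and handling cannot be told apart from stage in the comparisons with post-reproduction. Hibernating animals had passed at least 4 torpor bouts, and the labels give day 4 of a bout for sampling without saying how that applies to early arousal. Gel-cut RNA of 18 to 30 nt, from about 10 µg per stage, went into the libraries, which had 15 cycles of PCR. There are no replicates, so no test between stages was possible, each ratio compares libraries, and all intervals are exact 95% intervals that cover counting error only. In a tissue extract, fewer cells of a type and less RNA per cell cannot be told apart.

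Small RNA libraries hold miRNAs, which are cut to a narrow size by Dicer, and also pieces of longer structural RNAs. Ribosomal RNA (rRNA) forms the ribosome, and its 18S, 5.8S and 28S parts are cut from 1 precursor. Transfer RNA (tRNA) carries amino acids to the ribosome and is cleaved in and beside its anticodon loop by nucleases such as angiogenin, which leaves fragments longer than miRNAs. Y RNAs are short polymerase III transcripts that bind the Ro60 protein. Their ends pair into a stem, they finish in a run of T in the DNA sense, and fragments of both ends are common in small RNA libraries. Small nucleolar RNAs with a C box guide the modification of other RNAs. The germline piRNAs, the best known RNAs near 30 nt, mostly begin with T in the DNA sense and form pairs on opposite strands that overlap by 10 bases.

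Because many of these RNAs have several gene copies, loci often share the same reads. The 106 loci fell into 36 families joined by shared reads, of which 14 had 1 member locus and 22 held the other 92 loci. Family values count each read once. A family is named by the RNA whose sequence its most common read was recognised as, by eye and from general knowledge, after the counts had been seen and without any reference sequence of these RNAs. The names are therefore descriptive labels. By this reading 18 families were rRNA (63 loci), 8 were tRNA (32 loci), 4 were Y RNA (5 loci) and 6 (6 loci) stayed unnamed. Letters a to n number families within a label by their reads.

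The most common reads of the rRNA families that the results turn on are given 5′ to 3′, as DNA letters.
28S-a: cgctaaaccattcgtagacgacctgcttct
28S-b: tggggggcccaagtccttctgatcgaggcc
28S 5′ end: cgcgacctcagatcagacgtggcgacccgc
28S-c: gagaggtgtagaataagtgggaggcccccg
28S-e: atgtaggtaagggaagtcggcaagccggat
28S-l: tgcccagtgctctgaatgtcaaagtgaaga
5.8S 5′ end: cgactcttagcggtggatcactcggctcgt

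Those of the tRNA families are shown because 5 of all 8 carry, in capitals here, the A box, the internal promoter element of tRNA genes. It was searched on the strand of the read as TNGNNNAGTGG or TNGNNNAGTNGG, where N is any base, and either form was found in 38 of 868 distinct fully placed reads (4.38%). It was found in no family of another class. Lys-a holds it, and initiator Met and Pro do not hold these letters.
Lys-a: gcccggcTAGCTCAGTCGGtagagcatggg
initiator Met: agcagagtggcgcagcggaagcgtgctggg
Pro: ggctcgttggtctaggggtatgattctcgc

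The Y RNA reads are shown as pairs from the ends of 1 RNA, with the bases that pair between the ends in capitals (A with T, G with C, G with T).
Y1 5′ end: GGCTGGTCcgaaggtagtgagttatctcaa
Y1 3′ end: ccttctcactactgcacttGACTAGTCttt
Y3 5′ end: GGCTGGTCcgagtgcagtggtgtttacaac
Y3 3′ end: cactcccactgcttcacttGACTAGCCttt
Y4 5′ end: GGCTGGTCcgatggtagtgggttatcagaa
Y4 3′ end: ccccccactgctaaatttGACTGGCTtttt

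Of the unnamed families, 3 carry the letters TGATGA, the core of the C box, in capitals here. These letters were found on the read's strand in 30 of the 868 distinct reads (3.46%), and a match is a description of the letters only.
unnamed-a: cattctgaaggaaaaagtatgTGATGAcat
unnamed-c: cctggaTGATGAtaagaagataactgattg
unnamed-e: tagaaTGATGAaaaaagtatccttaggcgt

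Placed reads numbered 5614441, 5611673 and 5860476 in the post-reproduction, early arousal and late torpor libraries, and values given as 3 in a row follow this order throughout. Reads that start like miR-122, the main hepatocyte miRNA, by the same kind of reading made up 74.9%, 72.4% and 76.3% of them. Fully placed reads on at most 9 lines were rare. There were 2799, 8158 and 1797 in the post-reproduction, early arousal and late torpor libraries, or 499 (480 to 517), 1454 (1422 to 1486) and 307 (293 to 321) reads per 1000000 placed reads (RPM). The early arousal library stood above both others and the late torpor library below both. The member loci held 11781 of these 12754 reads (92.4%) in 241 distinct sequences. A count of 0 in a library allows up to 3 reads, or 0.534, 0.535 and 0.512 RPM in the post-reproduction, early arousal and late torpor libraries.

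Both early arousal ratios rose over the longest placed lengths. The early arousal to post-reproduction ratio was 0.955 for reads placed over 23 bases, 0.738 over 24, 1.32 over 25, 1.03 over 26, 1.24 over 27, 1.54 over 28, 2.02 over 29 and 2.98 (2.86 to 3.10) over 30 bases, here with all fully placed reads whatever their number of lines. The early arousal to late torpor ratio was 0.903 over 23 bases and 4.80 (4.58 to 5.04) over 30. At the shortest placed length, 18 bases, the early arousal to post-reproduction ratio was 1.56. The late torpor to post-reproduction ratio did not follow placed length in this way: it was 0.594 over 24 bases, 0.652 over 26, 0.749 over 28 and 0.619 over 30. The part of this length trend in the results that follow was not tested, and with 1 library each the trend cannot be told apart from the stages.

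**Figure D1:**
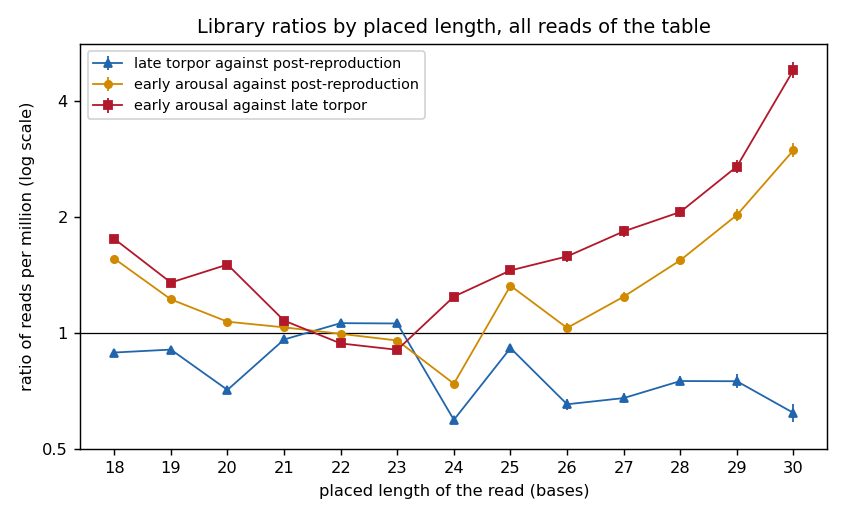
Ratio of RPM between libraries (log axis) against the number of placed bases, from 18 to 30, 1 line per comparison, with exact 95% counting intervals that are mostly smaller than the symbols. Both early arousal lines rise over the longest placed lengths, to 2.98 against post-reproduction and 4.80 against late torpor at 30 bases.

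Early arousal had the highest RPM of the 3 libraries in 35 of 36 families: 17 of 18 rRNA, all 8 tRNA, all 4 Y RNA and all 6 unnamed families. The count was 26 of 36 after scaling by trimmed mean of M-values, a scaling that sets the bulk of all loci level and shifts log2 ratios of early arousal against post-reproduction by -0.34, and 9 of 36 when counts were scaled to the fully placed reads of each library. On placed reads, late torpor was lowest in 26 families and post-reproduction in 10. Equal read counts were ordered by library size alone. This holds for 28S-b in early arousal and post-reproduction, and for Gly in early arousal and late torpor. It also holds for Lys-b, the Y3 5′ end and 28S-j in post-reproduction and late torpor. The shares of all loci with these orders were not counted, and the median ratios of all loci given below also lay above 1 for early arousal. Against post-reproduction, 63 of the 106 member loci (59.4%) were at least 2-fold higher in early arousal, where 23.8% of all loci of every placed length were, and 0 were at least 2-fold lower, where 8.42% of all loci were. By family the count was 18 of 36. The interval lay above 1 in 23 families and held 1 in 13, and it lay below 1 in 0, where it lay above 1 in 27.8% and below 1 in 13.8% of all loci. The median ratio was 2.67 over member loci and 2.24 over families, and 1.23 over all loci. Against late torpor, 77 loci (72.6%) were at least 2-fold higher in early arousal and 0 lower, where 25.8% and 6.12% of all loci were. By family the count was 24. The interval lay above 1 in 26 families and held 1 in 10, with 0 below 1, where it lay above 1 in 31.6% and below 1 in 8.25% of all loci. The median ratio was 3.85 over loci, 2.98 over families and 1.33 over all loci. Both comparisons use the 1 early arousal library.

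Many members passed the limit only through early arousal: 48 of the 106 loci and 19 of the 36 families had at least 20 reads without that library. Of these 48 loci, 21 were at least 2-fold higher in early arousal than in post-reproduction and 0 lower, where 16.7% and 9.90% of all loci under the same limit were. Against late torpor 32 were higher and 0 lower, where 18.8% and 6.69% were. By family the counts were 8 and 13 of 19. This limit was chosen after the data were seen, and it disfavours loci that are high in early arousal.

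Late torpor and post-reproduction lay closer together. Here 2 member loci (1.89%) were at least 2-fold higher in late torpor and 19 (17.9%) at least 2-fold lower, where 17.0% and 22.5% of all loci were. By family 2 were higher and 7 lower. The interval lay above 1 in 1 family and below 1 in 8, where it did so in 16.8% and 25.1% of all loci. The median ratio was 0.719 over loci, 0.835 over families and 0.901 over all loci. The share lower in late torpor, 17.9% of member loci and 19.4% of families, was thus near the 22.5% of all loci. With counts scaled to the fully placed reads of each library, the split of loci at least 2-fold higher and lower was 15 and 3 for late torpor against post-reproduction. On that scale it was 5 and 26 for early arousal against post-reproduction, and 2 and 35 for early arousal against late torpor. Class sums then had early arousal to post-reproduction ratios of 0.767 for rRNA, 1.61 for tRNA, 1.23 for Y RNA and 2.49 for the unnamed families, so the direction turned for rRNA. Against late torpor these ratios were 0.945, 0.975, 0.858 and 3.03, so that it turned for all 3 named classes. For late torpor against post-reproduction the ratios were 0.812 for rRNA, 1.65 for tRNA, 1.43 for Y RNA and 0.823 for the unnamed families, so the direction turned for Y RNA.

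**Figure D2:**
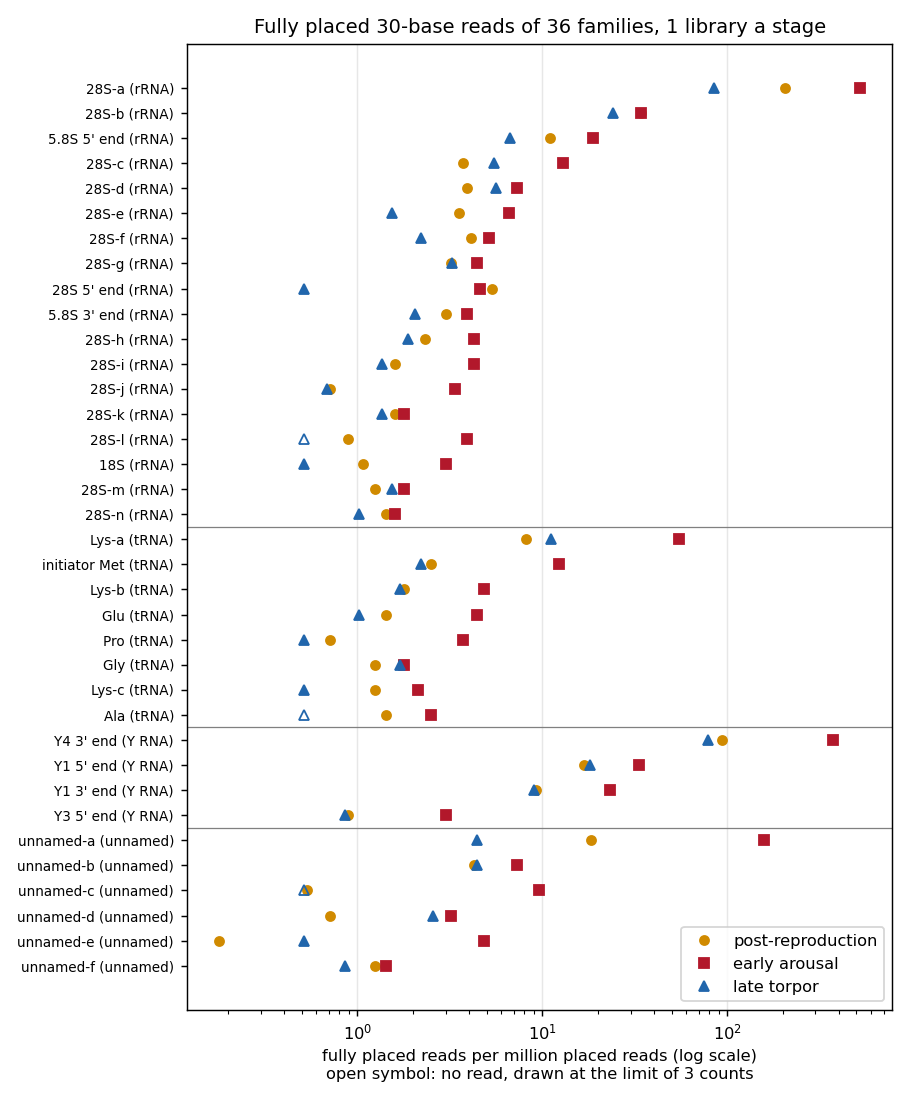
RPM (log axis) of each of the 36 families in the 3 libraries, 1 symbol per library, grouped by RNA class, with open symbols at the limit of 3 counts where a library had no read. The early arousal symbol is the highest in 35 of 36 families, in 28S-b and Gly by library size alone.

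Ribosomal RNA gave the most fully placed reads, and the class was led by 1 fragment. The 18 families summed to 1623, 3630 and 846 reads in the post-reproduction, early arousal and late torpor libraries, or 289, 647 and 144 RPM. Early arousal was 2.24 (2.11 to 2.37) times post-reproduction, and late torpor was 0.499 (0.459 to 0.543) times it. Most of these reads were 28S-a, which lies toward the 3′ end of 28S rRNA, the RNA of the large ribosomal subunit. Without 28S-a the class had 465, 685 and 351 reads, early arousal was 1.47 (1.31 to 1.66) times post-reproduction and late torpor 0.723 (0.628 to 0.832) times. By family, 6 of 18 were at least 2-fold higher in early arousal than in post-reproduction and 11 of 18 than in late torpor. Of all loci, 23.8% and 25.8% were. Among the families higher in both comparisons, 28S-i, 28S-j, 28S-l and 18S passed the read limit only through early arousal. Their place in these counts is thus conditioned on that choice.

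28S-a, at scaffold_114894, minus strand, 49924 to 49976, had 1158, 2945 and 495 reads in the post-reproduction, early arousal and late torpor libraries (206, 525 and 84.5 RPM). Early arousal was 2.54 (2.38 to 2.73) times post-reproduction and 6.21 (5.65 to 6.85) times late torpor, and late torpor was 0.410 (0.368 to 0.455) times post-reproduction. All 3 libraries thus differed by more than counting error. Its reads kept 1 start: 98.8% began at the same base. Its most common read held 4544 of its 4598 reads, so few were left without it, and no interval was computed for them. On those few reads the log2 ratio of late torpor to post-reproduction was -0.25 in place of -1.29. That of early arousal to post-reproduction was 2.29 in place of 1.35. The neighbouring family 28S-m lies just downstream, and its most common read starts at 49922 against 49959 for 28S-a on the same strand. It had 7, 10 and 9 reads, an early arousal to post-reproduction ratio of 1.43 (0.491 to 4.42) that does not separate it from 28S-a, and an early arousal to late torpor ratio of 1.16 (0.424 to 3.23), whose interval lies below the value of 28S-a.

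As a whole family, 28S-b stood apart from 28S-a. It had 191, 191 and 142 reads in the post-reproduction, early arousal and late torpor libraries (34.0, 34.0 and 24.2 RPM), at 4 loci of which the first is scaffold_106312, plus strand, 22658 to 22691. The ratio of early arousal to post-reproduction was 1.0 (0.814 to 1.23), an interval that excludes the 2-fold difference reached by 18 of 36 families, and the late torpor to post-reproduction ratio was 0.712 (0.569 to 0.890). Its most common read had 172, 117 and 118 reads. Without that read the log2 ratio of early arousal to post-reproduction was 1.96, against 2.29 for 28S-a without its own most common read. The ratio of 1.0, and with it the contrast with 28S-a, thus rests on 1 sequence.

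The fragment of the 28S 5′ end, scaffold_106312, plus strand, 22474 to 22503, was the exception to the order of the libraries. Its 1 distinct read was counted 30, 26 and 3 times in the post-reproduction, early arousal and late torpor libraries. Early arousal was 0.867 (0.493 to 1.52) times post-reproduction, and late torpor was 0.0958 (0.0187 to 0.308) times it, the lowest such ratio among families with a read in both libraries. Reads with the same first 18 bases but an adapter after 18 to 25 bases were far more common, 20 nt in most cases, with 16437, 18187 and 4019 reads. These short forms were also lowest in late torpor, and both of the other libraries held them at like levels.

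Of the other rRNA families, 28S-c had 21, 73 and 32 reads in the post-reproduction, early arousal and late torpor libraries (3.74, 13.0 and 5.46 RPM), and early arousal was 3.48 (2.12 to 5.95) times post-reproduction. 28S-e had 20, 37 and 9 reads, and its early arousal to late torpor ratio was 4.29 (2.03 to 10.1). 28S-l, which passed the limit only through early arousal, had 5, 22 and 0 reads. Early arousal was 7.66 times late torpor with the 0 reads set at the limit of 3 counts, with an exact lower limit of 5.72. It was 4.40 (1.63 to 14.9) times post-reproduction. The 5.8S 5′ end, scaffold_83917, minus strand, 3803 to 3843, had 62, 106 and 39 reads. Early arousal was 1.71 (1.24 to 2.38) times post-reproduction for it and late torpor 0.603 (0.393 to 0.914) times. 5.8S rRNA pairs with 28S rRNA in the ribosome. The most common reads of its 5′ and 3′ end families span 155 bases on that scaffold. The 3′ end had 17, 22 and 12 reads, and each of its ratio intervals held 1.

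All 18 rRNA families lay on a scaffold with another rRNA family, and none of their 24 scaffolds held a family of another class. On the plus strand of scaffold_106312, 10 families followed each other from 18S, 3406 bases before the 28S 5′ end, to 28S-n, 4163 bases after it. A second locus of the 18S family lay 22957 bases after it. Neighbours differed in level: 28S-b, 186 bases from the 5′ end, had 34.0 RPM in post-reproduction, against 1.60 for 28S-i at 1375 bases. Levels were thus uneven along the RNA.

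**Figure D3:**
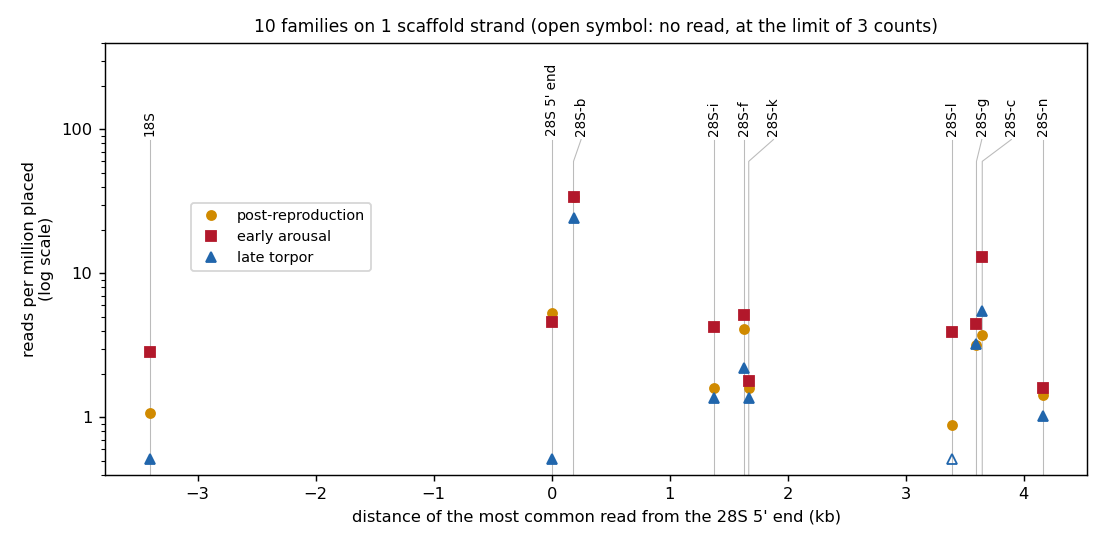
RPM (log axis) of the 10 families on the plus strand of scaffold_106312 in the 3 libraries, against the distance in kb of the most common read from the 28S 5′ end, with an open symbol at the limit of 3 counts for 0 reads. 28S-b reaches 34.0 RPM in post-reproduction and early arousal (symbols overlap), and most other families stay under 10 RPM.

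All 8 tRNA families had their highest RPM in early arousal, though Gly only by library size, with 10 reads there and 10 in late torpor. Together they had 104, 487 and 110 reads in the post-reproduction, early arousal and late torpor libraries, or 18.5, 86.8 and 18.8 RPM. Early arousal was 4.69 (3.78 to 5.85) times post-reproduction and 4.62 (3.75 to 5.74) times late torpor, while late torpor against post-reproduction was 1.01 (0.768 to 1.34). By family, 5 of 8 were at least 2-fold higher in early arousal than in post-reproduction and 7 of 8 than in late torpor. Of all loci, 23.8% and 25.8% were. Glu, Gly, Pro, Lys-c and Ala passed the read limit only through early arousal, which favours a high value there. These counts and the shared order of the 8 families are thus partly conditioned on that choice. Lys-a supplied most of the class.

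Lys-a, a tRNA for lysine at 2 loci of which the first is GeneScaffold_2817, minus strand, 249384 to 249418, had 46, 309 and 65 reads in the post-reproduction, early arousal and late torpor libraries (8.19, 55.1 and 11.1 RPM). Early arousal was 6.72 (4.92 to 9.37) times post-reproduction and 4.96 (3.79 to 6.59) times late torpor. Its most common read held 399 of its 420 reads, so few were left without it, and no interval was computed for them. On those few reads the log2 ratio of early arousal to post-reproduction was 0.89 in place of 2.75. That of late torpor to post-reproduction was -2.87 in place of 0.44. In Lys-a, 95% of reads were 1 sequence that starts at the first base of the tRNA by this reading. The initiator Met tRNA, which starts translation, has 3 loci, the first at GeneScaffold_5619, plus strand, 218699 to 218731. It had 14, 69 and 13 reads, and early arousal was 4.93 (2.75 to 9.49) times post-reproduction and 5.54 (3.04 to 10.9) times late torpor. Pro, which reached 20 reads only through early arousal, is a tRNA for proline at 6 loci of which the first is GeneScaffold_2192, plus strand, 90790 to 90819. It had 4, 21 and 3 reads and an early arousal to post-reproduction ratio of 5.25 (1.77 to 21.0). For these 3 families post-reproduction and late torpor lay within counting error of each other. The other 5, Lys-b, Lys-c, Glu, Gly and Ala, had 22 to 47 reads each and early arousal to post-reproduction ratios from 1.43 to 3.13. Ala had 0 reads in late torpor and 8 in post-reproduction.

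The Y RNA families were 4, from 3 Y RNAs. They had 679, 2431 and 624 reads in the post-reproduction, early arousal and late torpor libraries, or 121, 433 and 106 RPM. Early arousal was 3.58 (3.29 to 3.91) times post-reproduction and 4.07 (3.72 to 4.45) times late torpor. Late torpor against post-reproduction was 0.880 (0.788 to 0.983). All 4 families had an interval above 1 in both comparisons with early arousal. The Y3 5′ end passed the read limit only through early arousal, so its intervals are conditioned on that choice.

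The Y4 3′ end, GeneScaffold_3573, plus strand, 112999 to 113035, led the class with 528, 2096 and 460 reads (94.0, 374 and 78.5 RPM). Early arousal was 3.97 (3.61 to 4.38) times post-reproduction and 4.76 (4.30 to 5.28) times late torpor. Its most common read made up 68.7% of the family. Without it the log2 ratio of early arousal was 1.42 against post-reproduction and 1.36 against late torpor, in place of 1.99 and 2.25, and that of late torpor against post-reproduction was 0.06 in place of -0.26. Its 5′ partner had only 16 reads over the 3 libraries against 3084 for the 3′ end, so the ends of Y4 were recovered very unequally at this length. Y1 was different. Its 5′ end, minus strand of that scaffold, 6935 to 6964, had 94, 187 and 106 reads with an early arousal to post-reproduction ratio of 1.99 (1.55 to 2.58). Its 3′ end, 6851 to 6890, had 52, 131 and 53 reads with a ratio of 2.52 (1.81 to 3.55). These intervals overlap. The Y3 5′ end, which the naming rule did not pick and which is given to complete the class, had 5, 17 and 5 reads at 2 loci.

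Length and pairing, which the choice of loci did not use, were then read from the Y RNA ends. From the most common 5′ read to the most common 3′ read, the 3 RNAs span 112 bases for Y1 (6853 to 6964), 101 for Y3 (2887 to 2987) and 96 for Y4 (112939 to 113034), all on GeneScaffold_3573. Rarer reads reach past the 3′ bounds, to 6851 for Y1 and 113035 for Y4. In each, 8 bases of the 5′ read pair without a gap with 8 near the end of the 3′ read. Families of at least 10 reads gave 46 same-strand pairs of fully placed reads that span 60 to 200 bases. These 3 had a run of 8, and the other 43 had longest runs of 2 to 6 within the outer 15 letters. Many of the 43 repeat the same reads over rRNA gene copies, so they are not separate comparisons. All 3 of the Y RNA 3′ reads end in TTT, as 30 of the 868 distinct reads do (3.46%). Among the families, the most common reads of the Y1 3′ end, the Y4 3′ end, 18S and Lys-c end so. The Y3 3′ end (11 reads) and the Y4 5′ end (16 reads) are no members and are given for their partners only. Y3 starts 4077 bases from Y1, and Y1 starts 105975 bases from Y4.

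The 3 TGATGA families were far apart between libraries. Together they had 107, 964 and 29 reads in the post-reproduction, early arousal and late torpor libraries, so that early arousal was 9.01 (7.38 to 11.1) times post-reproduction and 34.7 (24 to 52.1) times late torpor, and late torpor was 0.260 (0.166 to 0.394) times post-reproduction. Nearly all of these reads were unnamed-a. It lies at GeneScaffold_1735, minus strand, 305437 to 305468, and had 103, 883 and 26 reads (18.3, 157 and 4.44 RPM). Early arousal was 8.58 (6.99 to 10.6) times post-reproduction and 35.5 (24 to 54.6) times late torpor, and late torpor was 0.242 (0.151 to 0.375) times post-reproduction. All 3 libraries were apart by more than counting error, and 98.6% of its reads were 1 sequence. Without that sequence, 998 of its 1012 reads, its log2 ratio of early arousal to late torpor was 3.52. That value rests on the few reads left and has no interval.

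The other TGATGA families were rarer. Family unnamed-c, at GeneScaffold_5301, minus strand, 1377 to 1408, had 3, 54 and 0 reads. Its early arousal to post-reproduction ratio was 18.0 (5.84 to 90.1). Against late torpor, with its 0 reads set at the limit of 3 counts, the ratio was 18.8, and the exact lower limit was 14.8. Its start placed over 24 to 29 bases had 162, 488 and 38 reads, with an early arousal to post-reproduction ratio of 3.01 (2.52 to 3.62) and a late torpor to post-reproduction ratio of 0.225 (0.154 to 0.322). The order of the libraries was the same in these shorter forms. Family unnamed-e, at GeneScaffold_4919, plus strand, 453608 to 453638, had 1, 27 and 3 reads, a ratio of 27.0 (4.45 to 1106) to post-reproduction and 9.40 (2.89 to 48.4) to late torpor. With 0 to 3 reads in each other library, unnamed-c and unnamed-e reached the limit of 20 reads only through early arousal, so their ratios are conditioned on that choice. The other 3 unnamed families had 20 to 91 reads each, of which unnamed-d and unnamed-f also passed the limit only through early arousal. Among them unnamed-d, with 4, 18 and 15 reads at GeneScaffold_5043, minus strand, 6967 to 7003, was the 1 family whose late torpor to post-reproduction interval lay above 1, at 3.59 (1.14 to 14.9). It falls outside the naming rule and was chosen after its values were seen.

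**Figure D4:**
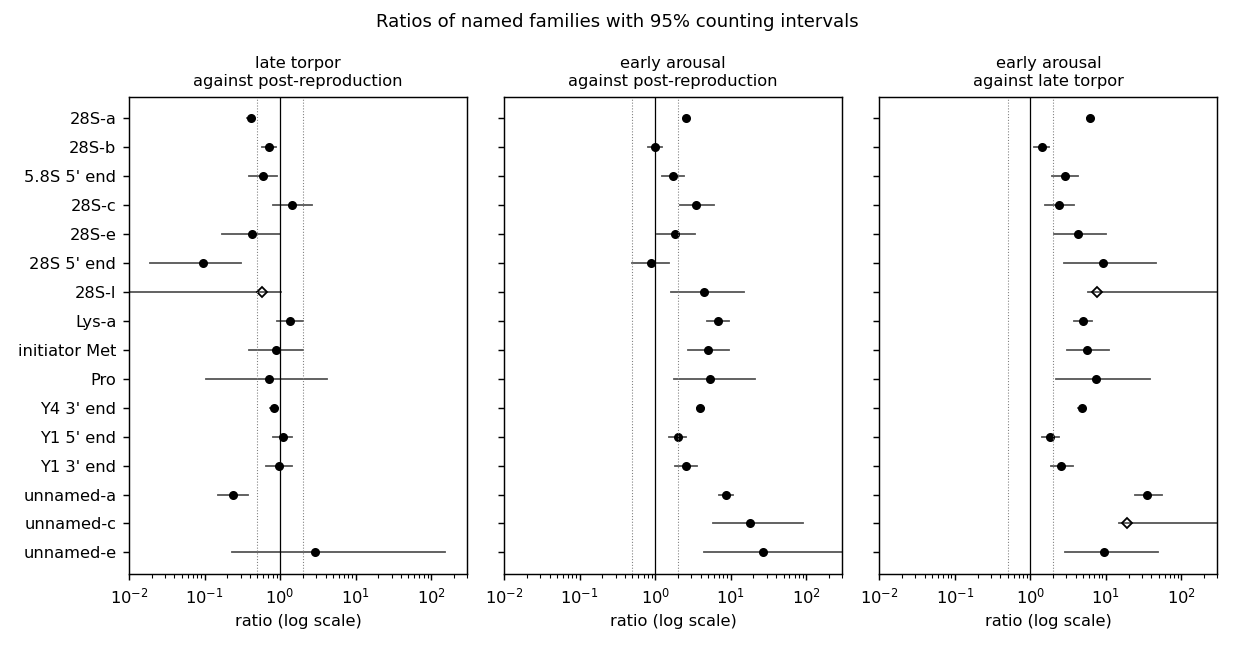
Ratios of RPM between libraries (log axis) for the named families, 1 panel per comparison, with exact 95% counting intervals, open diamonds where a library had 0 reads and the value is a bound at 3 counts, dotted lines at 2-fold, and intervals that run past the axis limits cut there. unnamed-a (8.58 against post-reproduction, 35.5 against late torpor) lies far above 28S-b (1.0 and 1.40).

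Reads that start at the same 18 bases but were not fully placed give a measure beside the fully placed counts. They include shorter RNAs and also reads whose last letters differ from the genome. Over the starts of all 36 families, fully placed reads were 6.15%, 13.3% and 7.08% of same-start reads. The 28S 5′ end, with its many short forms, weighs on these shares: without it they were 12.3%, 21.4% and 9.36%, so post-reproduction lay above late torpor and not below. For tRNA starts the shares were 12.7%, 31.2% and 18.4%, and for Y RNA starts 3.62%, 8.49% and 3.55%. Short inserts of 18 to 25 nt at the Y RNA starts, with 776, 1119 and 775 reads, had an early arousal to post-reproduction ratio of 1.44 (1.32 to 1.58). That is below the 3.58 of the fully placed Y RNA reads, which covers all starts of the families. At the same starts the fully placed Y RNA reads numbered 450, 1815 and 377. At tRNA starts the short inserts, with 79, 191 and 171 reads, were 2.42 (1.85 to 3.19) times post-reproduction in early arousal. In late torpor they were 2.07 (1.58 to 2.74) times post-reproduction, where the fully placed tRNA reads of all starts gave 1.01. Fully placed tRNA reads at the same starts numbered 81, 445 and 95. Different families carried these values: Pro and Ala held 50, 108 and 150 of the short inserts, and the other 6 tRNA families 29, 83 and 21. For those 6 the late torpor to post-reproduction ratio was 0.694 (0.376 to 1.26). At rRNA starts the short inserts were 0.255 (0.247 to 0.264) times post-reproduction in late torpor, with the 28S 5′ end supplying most of them. Without that family the ratio was 0.737 (0.658 to 0.824).

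Families differed widely in this share. At the start of 28S-a, 70.6%, 75.9% and 75.9% of reads were fully placed in the post-reproduction, early arousal and late torpor libraries. At that of the Y4 3′ end only 2.92%, 7.97% and 2.54% were, and 34268 reads were placed over 24 to 29 bases, 28 most often. Those shorter Y4 reads numbered 9795, 16055 and 8418, and early arousal was 1.64 (1.60 to 1.68) times post-reproduction, against 3.97 for the fully placed reads of all starts. At the same start the fully placed Y4 reads numbered 325, 1554 and 239. The share of 28S-a was lower in post-reproduction than in early arousal by more than counting error, and the share of the Y4 3′ end was highest in early arousal.

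**Figure D5:**
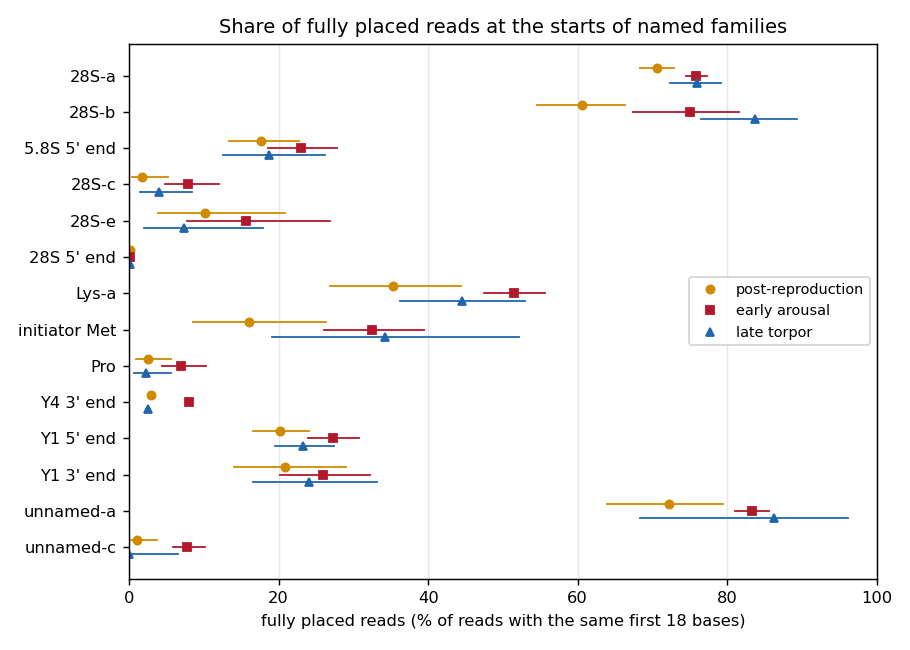
Fully placed reads as a percent of all reads with the same first 18 bases, for the named families with at least 20 such reads in each library, with exact binomial 95% intervals, 1 symbol per library. 28S-a lies between 70.6% and 75.9%, the Y4 3′ end between 2.54% and 7.97%.

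Neither piRNA feature was common. T was the first base of 8.75%, 3.30% and 8.90% of them in the post-reproduction, early arousal and late torpor libraries, against 95.3%, 94.8% and 96.3% of reads placed over 18 to 23 bases, most of which start like miR-122. C was the first base of 66.0%, 73.4% and 52.5%. The 3 most read families, whose most common reads begin with C, held 63.9%, 72.6% and 54.6% of the fully placed reads. The C share thus rests largely on these families. Of the 868 distinct reads, 16.4% began with T, 22.5% with C, 34.4% with A and 26.7% with G. Among these distinct reads, 0 had a read on the opposite strand whose first 10 bases overlap its own. None of the 106 member loci overlapped a locus on the other strand.

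The limit of 20 reads fell among low counts. Just inside it lay unnamed-f, with 7, 8 and 5 reads in the post-reproduction, early arousal and late torpor libraries, and Lys-c, with 7, 12 and 3. Just outside it lay a locus at scaffold_75893, plus strand, 2988, with 4, 14 and 1 reads, and one at scaffold_106312, plus strand, 22614, with 4, 9 and 5. The 1019 loci below the limit held the remaining fully placed reads.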

How the data were processed

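Per the labels' protocols, the authors sequenced small RNA of 3 mixed-RNA libraries, 1 per stage. They deposited 1 position table whose entries join a read, its whole-number read count and its stage. The counts were used as deposited. The unit is other than a numeric column, and the sources used here do not give the aligner or genome build. Positions are the lowest base of a placement, counted from 1, as the table gives them. A read listed in several capital forms was taken as 1 read, and its count never differed among 4218154 entries.

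Counts were divided by the placed reads of each library. Ratios have exact conditional binomial intervals and shares exact binomial (Clopper-Pearson) ones, from scipy 1.17.1 with numpy 2.4.6, Python 3.11.15 and matplotlib 3.10.9. Adapters were searched with up to 1 mismatch in 5 letters. PCR reads without molecular identifiers are not independent molecules. With 1 library per stage no p-value is given, and called means at least 2-fold. The ratio code was checked on simulated data.

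The loci, lists and comparisons were chosen with earlier results of these data known. Named families are the 10 most read, plus, per comparison, up to 6 highest and 6 lowest ratios at least 2-fold apart with at least 20 reads in the compared libraries and an interval excluding 1. Loci sharing reads were represented by the first in name and position. Any other family in the text was picked with its values known. Class names were given after the counts were seen. Alternatives covered scaling, placement, merging, minimum, fold, family counting and leaving out the most common read of a family. The RefSeq name table was of another build and not used here.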

Additional observations from a re-analysis of the deposited data

Results flagged for a closer look

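Fully placed reads listed on 10 or more lines of the position table lie outside the member loci. Early arousal held 1327 of them, against 390 in post-reproduction and 265 in late torpor. The early arousal library was 3.40 (3.04 to 3.82) times post-reproduction and 5.23 (4.58 to 5.99) times late torpor, and late torpor was 0.651 (0.555 to 0.763) times post-reproduction. They are given because a signal above the post-reproduction reference appears in reads that the loci do not use, and the intervals cover counting error only.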

How the results depend on the processing

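Among 106 member loci, 2 were at least 2-fold higher and 19 lower in late torpor than in post-reproduction, 63 higher and 0 lower in early arousal than in post-reproduction, and 77 higher and 0 lower in early arousal than in late torpor. Reads on 1 line only left 12 loci, with 1 and 1 (late torpor, higher and lower), 5 higher (early arousal against post-reproduction) and 5 higher (against late torpor). Counted as 36 families, 7 were lower in late torpor, and 18 and 24 higher in early arousal. A minimum of 50 reads left 38 loci, with 0 and 7, then 14 and 23. At least 20 reads without early arousal, added after seeing the data, left 48 loci, with 0 and 7, then 21 and 32. Scaling by trimmed mean of M-values gave 11 lower in late torpor. It shifted log2 ratios by 0.11 for late torpor and -0.34 for early arousal against post-reproduction, and by -0.45 for early arousal against late torpor. Scaling to fully placed reads, chosen after seeing the data, gave 15 higher and 3 lower in late torpor, 5 higher and 26 lower in early arousal against post-reproduction, and 2 higher and 35 lower against late torpor. With families as well, the counts were 7 and 2, 4 and 10, and 2 and 14. The drop under this scaling follows from its construction, since it removes the difference in the total of fully placed reads. RPM of fully placed reads were 365, 1050 and 214 in the post-reproduction, early arousal and late torpor libraries for reads on 1 line, and 568, 1690 and 352 with no limit on lines. No paired analysis was possible because each stage is 1 library. Depth limits families near 20 reads, whose intervals mostly hold 1.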
